A study of Homo sapiens with 6 samples.

Results

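The epithelial-mesenchymal transition (EMT) genes described here are 10 genes, namely the transcription factors *SNAI1*, *SNAI2*, *TWIST1*, *TWIST2*, *ZEB1* and *ZEB2*, the ligands *TGFB1* and *TGFB2*, and the receptors *TGFBR1* and *TGFBR2*. They were picked by name, as the transcription factors that drive EMT and the ligands and receptors of transforming growth factor-β (TGF-β). Of the 10 genes, 7 could be matched to a row of the deposited expression table, which holds 53617 rows (transcript clusters, the groups of probes that stand for one transcript region). The platform annotation names 6 of the 7, each with 1 transcript cluster. The seventh, *TGFBR2*, is named only by the study's own table of called genes, so that its presence here already depended on its change, and its values are given as a description. *TGFB1*, *TGFB2* and *TGFBR1* had no named transcript cluster and were not analysed here.

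The cells were MDA-MB-231, an established triple-negative, basal-like human breast cancer cell line of mesenchymal character, and their RNA was profiled on the Affymetrix Human Gene 2.0 ST platform. A total of 3 arrays carried RNA of cells treated with S-adenosylmethionine (SAM), the methyl donor of most cellular methylation reactions, and 3 carried RNA of Control cells. By the study's methods SAM was added to the medium at 200 μM, first on day 2 and then on alternate days, and the scheme places harvest on day 7. Control cells are untreated according to their labels, while vehicle is the control that the study describes; both groups are the same single cell line in culture, so the comparison asks how SAM altered expression in one line. Each value is a log2 signal intensity, which makes a difference of 1 a doubling. In such bulk RNA, a smaller share of cells with a transcript and less of it per cell cannot be told apart.

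EMT is the process in which epithelial cells lose their junctions and polarity and gain a migratory, mesenchymal state. TGF-β ligands are secreted in a latent form, and once released they bind the type II receptor encoded by *TGFBR2*, which recruits and phosphorylates the type I receptor encoded by *TGFBR1*. The type I receptor phosphorylates SMAD2 and SMAD3, which enter the nucleus with SMAD4 and act on genes that include those of the SNAI, ZEB and TWIST factors. SNAI and ZEB proteins are zinc-finger repressors that bind E-box motifs in the promoters of epithelial genes, TWIST proteins are basic helix-loop-helix factors, and ZEB1 and ZEB2 repress, and are repressed by, the microRNAs of the miR-200 family.

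The groups were compared on all 53617 transcript clusters with limma's moderated test, and a call required an unadjusted P below 0.01 together with a change of more than 1.5-fold in either direction (0.58 on the log2 scale), the thresholds of the study's methods. By this rule 1.09% of all transcript clusters were called, 0.621% lower and 0.464% higher in SAM-treated cells. Of the 16098 transcript clusters with a gene symbol in the platform annotation, 0.69% were called, 87 lower and 24 higher. In 15.1% of all transcript clusters, and in 18.4% of those with a symbol, the values of the 3 SAM arrays did not overlap with those of the 3 Control arrays. No transcript cluster (0) reached an adjusted p under 0.05 in limma, where the lowest adjusted p was 0.245, and 4285 had an unadjusted P under 0.05.

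Array medians lay at 4.83 to 4.85 in SAM arrays and 4.75 to 4.83 in Control arrays, and Control replicate 1 correlated less with the other arrays (mean r = 0.964) than the rest did (0.974 to 0.98). Genes known for high expression in this line, such as *MSN* (mean log2 signal 11.5), *ANXA1* (11.0), *AXL* (10.5) and *VIM* (9.32), were well above 4.81, the median of the mean signals, while the luminal and hormone receptor markers lay on both sides of it, with *PGR* (4.12), *FOXA1* (4.99) and *ESR1* (5.09) low or near it and *GATA3* (just under 6), *TFF1* (6.31), *EPCAM* (6.54) and *KRT19* (8.12) higher. Of the leukocyte markers 2 of 6 were measured, *CD68* (10.5) and *CD14* (6.47), with a summed level of 16.9 to 17.6 in SAM arrays and 16.5 to 16.8 in Control arrays. Endothelial markers (3 of 5 measured, mean signals of 4.85 to 5.72) summed to 15.6 to 16.3 in SAM arrays and 16.1 to 16.7 in Control arrays, and fibroblast and muscle markers (3 of 6 measured, 2.78 to 6.28) to 12.0 to 12.6 in SAM arrays and 12.4 to 13.9 in Control arrays. Of the measured markers of these other cell types 0 passed both thresholds, where 0.69% of the transcript clusters with a symbol were called. Their part in the results below was not tested.

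*TGFBR2* was the one member that passed both thresholds, and it was lower in SAM-treated cells. Its log2 signal was 9.86, 9.43 and 9.63 in the SAM arrays, against 10.15, 10.46 and 10.13 in the Control arrays. Every SAM array lay below every Control array, and the nearest arrays of the groups were SAM replicate 1 and Control replicate 3. The means were 9.64 ± 0.21 in SAM arrays and 10.25 ± 0.18 in Control arrays (SD, n = 3 each), a log2 fold change of -0.60 (SE 0.16, 95% interval -0.98 to -0.23), or 1.52-fold lower in SAM-treated cells. The unadjusted P was 0.00656 and the adjusted p 0.565 in limma; as the study's calls supplied the name of this transcript cluster, neither value is independent evidence. The fold change kept its sign when each array was left out in turn, at -0.71 to -0.50, but both thresholds were passed only without SAM replicate 1 or without Control replicate 1, and not without SAM replicate 2 (-0.50), SAM replicate 3 (-0.60), Control replicate 2 (-0.50) or Control replicate 3 (-0.66).

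**Figure D1:**
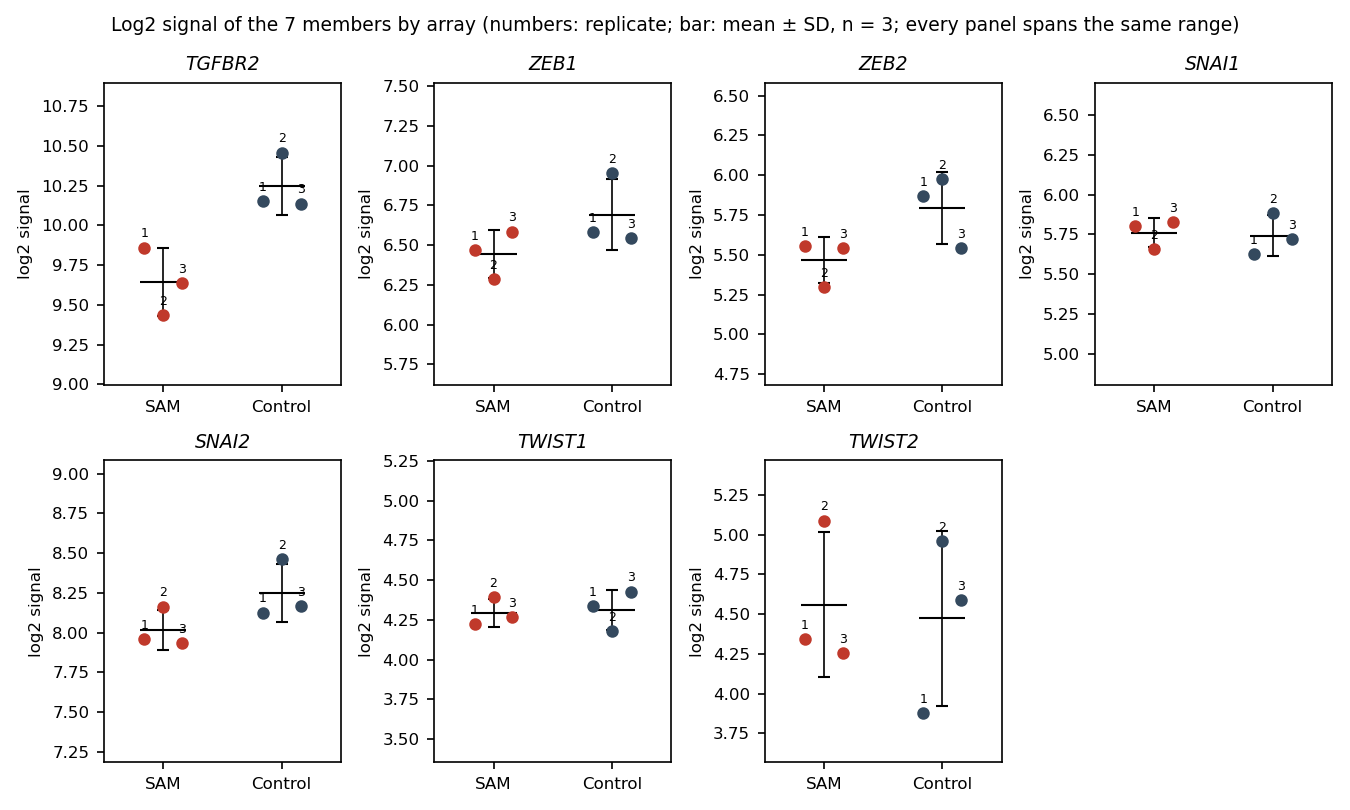
Log2 signal of each of the 7 measured members in every array, with SAM arrays left of Control arrays, the replicate number beside each point, and the mean ± SD (n = 3) as a bar. Only *TGFBR2* has all 3 SAM arrays (9.43 to 9.86) below all 3 Control arrays (10.13 to 10.46); *ZEB2* comes closest among the others, and *TWIST2* has the widest spread within both groups.

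The promoter of *TGFBR2* is shown because it belongs to the one member that passed, and because SAM donates the methyl groups that DNA methyltransferases place on cytosines of CG dinucleotides. RefSeq annotation of GRCh38.p14 gives the 250 bases before one of its transcript starts as chr3:30606351-30606600 on the plus strand, with CG dinucleotides in capitals:
*TGFBR2* promoter: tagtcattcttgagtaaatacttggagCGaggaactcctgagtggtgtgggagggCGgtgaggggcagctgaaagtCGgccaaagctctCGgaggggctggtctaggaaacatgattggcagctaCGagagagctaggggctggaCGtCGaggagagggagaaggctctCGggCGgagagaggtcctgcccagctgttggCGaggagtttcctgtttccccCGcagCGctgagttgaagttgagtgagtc
This window holds 12 CG dinucleotides, and 48.5% of 35116 promoter windows of the same length hold at least as many. It was picked as the *TGFBR2* window with the most CG dinucleotides, and the other, at chr3:30606106-30606355, holds 7. The printed window holds 0 matches to the E-box CAGGTG or its reverse complement CACCTG, which 17.5% of all such windows hold at least once. Methylation of these sites was not measured in the files used here.

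By a fixed rule, the annotated genes whose signal was most like that of *TGFBR2* over the 6 arrays were *SYNJ2BP* (Pearson r = 0.994), *RHOT1* (r = 0.993) and *PRDM7* (r = 0.992). These correlations are over 6 arrays that share the 2 treatment groups, and they are given as a description. *SYNJ2BP* encodes a mitochondrial outer membrane protein, and its log2 signal was 3.88, 3.44 and 3.62 in SAM arrays, against 4.25, 4.72 and 4.20 in Control arrays. It passed both thresholds, at a log2 fold change of -0.74 with an SE of 0.19 (adjusted p = 0.565 in limma), from a signal that was below the median of all transcript clusters in every array. *RHOT1*, which encodes a mitochondrial GTPase, had a log2 fold change of -0.46, and *PRDM7*, a close paralog of *PRDM9* whose probes may not tell the genes apart, had one of -0.32; neither passed.

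The ZEB factors did not pass the test, although both averaged lower in SAM arrays. *ZEB2* had a log2 signal of 5.55, 5.30 and 5.54 in SAM arrays, against 5.87, 5.98 and 5.54 in Control arrays. Control replicate 3 lay within the SAM range, so the groups overlapped by that 1 array. The log2 fold change was -0.33 (SE 0.16, 95% interval -0.70 to 0.04), with an unadjusted P of 0.0735 and an adjusted p of 0.647 in limma. *ZEB1* had 6.47, 6.29 and 6.59 in SAM arrays, against 6.58, 6.95 and 6.54 in Control arrays. Here Control replicate 2 alone stood above the SAM arrays, and the log2 fold change was -0.25 (SE 0.16, 95% interval -0.62 to 0.13, adjusted p = 0.701 in limma). Without Control replicate 2 these fold changes were -0.24 for *ZEB2* and -0.12 for *ZEB1*. Both intervals include no change as well as a 1.5-fold decrease, so neither could be settled with 3 arrays in each group.

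The microRNAs that target the ZEB transcripts are shown to make plain which of them share a seed (bases 2 to 8, in capitals), the stretch that pairs with target messages. The mature sequences are those of RefSeq (GRCh38.p14), and all 6 microRNA genes were matched:
miR-200b-3p: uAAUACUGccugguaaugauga
miR-200c-3p: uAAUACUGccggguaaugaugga
miR-429: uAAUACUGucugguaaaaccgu
miR-200a-3p: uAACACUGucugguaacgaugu
miR-141-3p: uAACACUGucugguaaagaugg
miR-205-5p: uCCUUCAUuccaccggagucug
The first 3 share 1 seed, miR-200a-3p and miR-141-3p share another, and miR-205-5p has a seed of its own. The sequences of miR-200b-3p, miR-200a-3p and miR-429 lie together on the plus strand of chromosome 1 (chr1:1167160-1167181, chr1:1167916-1167937 and chr1:1169055-1169076), those of miR-200c-3p and miR-141-3p on chromosome 12 (chr12:6963742-6963764 and chr12:6964155-6964176), and that of miR-205-5p at chr1:209432166-209432187.

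The array reads RNA from these genes, which is not a measure of the mature microRNA. None (0 of 6) of the microRNA genes passed both thresholds, where 0.69% of the transcript clusters with a symbol were called. The median log2 fold change of the 6 genes was 0.06. *MIR200B* had a log2 signal of 5.62, 5.38 and 5.34 in SAM arrays, against 5.13, 5.01 and 5.07 in Control arrays. Its groups did not overlap, as in 18.4% of the transcript clusters with a symbol. The log2 fold change of *MIR200B* was 0.38 (SE 0.13, unadjusted P = 0.022, adjusted p = 0.584 in limma), a 1.3-fold difference. Its neighbours on chromosome 1 had log2 fold changes of the opposite sign, -0.37 for *MIR429* (SE 0.18, unadjusted P = 0.0767) and -0.37 for *MIR200A* (SE 0.27, unadjusted P = 0.209), with overlapping arrays. For the pair on chromosome 12 the values were 0.28 for *MIR200C* and 0.11 for *MIR141*, and for *MIR205* the value was 0.01. Mean signals of all but *MIR200B* were under 4.81, the median of the mean signals, so that most of these values come from dim transcript clusters.

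The SNAI factors did not pass either. *SNAI2*, which encodes the repressor Slug, had a log2 signal of 7.96, 8.16 and 7.93 in SAM arrays, against 8.13, 8.46 and 8.16 in Control arrays. SAM replicate 2 lay among the Control values, while the other SAM arrays lay below all of them. The log2 fold change was -0.23 (SE 0.15, 95% interval -0.57 to 0.11, adjusted p = 0.699 in limma), and it was -0.13 without Control replicate 2. *SNAI1*, which encodes Snail, had 5.80, 5.66 and 5.83 in SAM arrays, against 5.62, 5.89 and 5.72 in Control arrays. The arrays of the 2 groups were interleaved, at a log2 fold change of 0.02 (SE 0.13, 95% interval -0.29 to 0.32, adjusted p = 0.977 in limma).

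*TWIST1* had a log2 signal of 4.22, 4.39 and 4.27 in SAM arrays, against 4.33, 4.18 and 4.43 in Control arrays, and *TWIST2* had 4.34, 5.09 and 4.25 in SAM arrays, against 3.88, 4.96 and 4.59 in Control arrays. The groups overlapped for both genes. Log2 fold changes were -0.02 for *TWIST1* (SE 0.13, 95% interval -0.32 to 0.28, adjusted p = 0.973 in limma) and 0.09 for *TWIST2* (SE 0.32, 95% interval -0.66 to 0.84, adjusted p = 0.951 in limma). *TWIST2* had an SD of 0.46 in SAM arrays and 0.55 in Control arrays, larger than those of *TWIST1* (0.09 in SAM arrays and 0.12 in Control arrays). Both mean signals, 4.29 to 4.56 over the groups, were below the median of all transcript clusters, so a change in them may not be detectable at this signal.

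**Figure D2:**
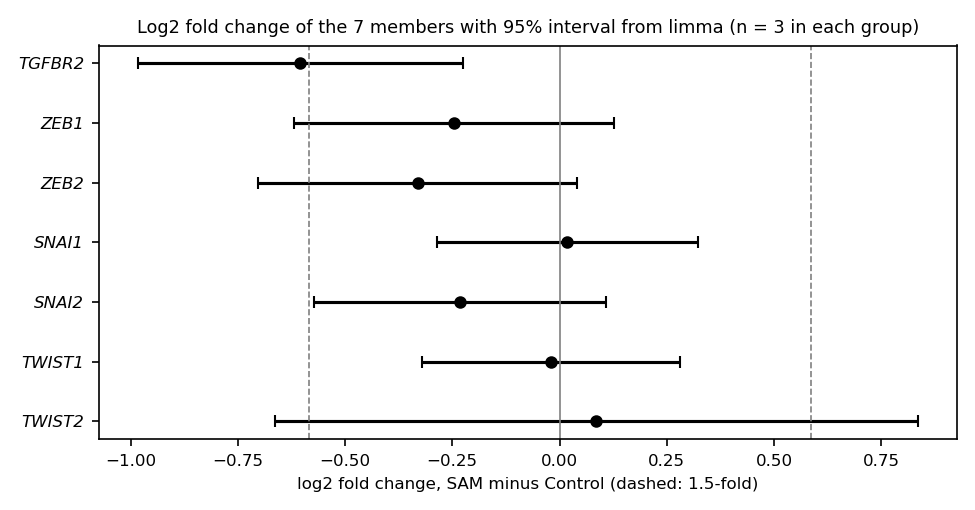
Log2 fold change (SAM minus Control) of the 7 measured members as points, with the 95% interval from limma as bars and dashed lines at a 1.5-fold change. The intervals of *SNAI1* (-0.29 to 0.32), *SNAI2* (-0.57 to 0.11, only just) and *TWIST1* (-0.32 to 0.28) lie inside the dashed lines, whereas those of *ZEB1*, *ZEB2*, *TWIST2* and *TGFBR2* cross them.

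Of the 6 members that the platform annotation names, then, 0 passed both thresholds and 0 were without overlap between the groups, where 0.69% of the transcript clusters with a symbol were called and 18.4% did not overlap. *TGFBR2*, which passed, is left out of this count, since the call itself named it. Log2 fold changes were negative for *TGFBR2*, *ZEB2*, *ZEB1*, *SNAI2* and *TWIST1* and positive for *SNAI1* and *TWIST2*, with the last 2 and *TWIST1* within 0.10 of no change. On the scale of the deposited signal, the intervals of *SNAI1*, *SNAI2* and *TWIST1* lay within a 1.5-fold change in either direction, and those of *ZEB1*, *ZEB2* and *TWIST2* did not. For *TWIST1* this holds for a dim signal only and sets no limit on the transcript itself. The lower end for *SNAI2*, -0.57, lies close to a 1.5-fold decrease, and without SAM replicate 2 its fold change was -0.31 (SE 0.16). Its interval is thus placed for the fit of all 6 arrays only. Control replicate 2 was the highest Control array for 6 of the 7 members, all but *TWIST1*. The same array was the highest Control array in 29.3% of all transcript clusters and in 32.3% of those with a symbol. Without it the log2 fold changes were -0.50 for *TGFBR2*, -0.24 for *ZEB2*, -0.12 for *ZEB1*, -0.13 for *SNAI2*, 0.0888 for *SNAI1*, -0.0873 for *TWIST1* and 0.33 for *TWIST2*, and none of the 7 passed both thresholds.

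Among 13 other EMT transcription factors, 9 were measured, of which 1 fell (*HMGA2*), 0 rose and 8 did not pass. Fold changes were negative for 7 of the 9, with a median of -0.22, where the median over all transcript clusters with a symbol was -0.02. Of those transcript clusters 0.69% were called and 53.9% had a negative fold change. *HMGA2*, an architectural chromatin protein that acts with SMADs on *SNAI1*, had a log2 signal of 6.55, 6.82 and 6.76 in SAM arrays, against 7.30, 7.32 and 7.34 in Control arrays. The Control arrays were nearly level and all SAM arrays lay below them, at a log2 fold change of -0.61 (SE 0.13, unadjusted P = 0.00157, adjusted p = 0.517 in limma), 1.53-fold lower in SAM-treated cells. Without SAM replicate 1 the value was -0.53 and the fold change no longer passed.

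The forkhead factor *FOXQ1* had 6.51, 6.79 and 6.72 in SAM arrays, against 7.20, 7.02 and 7.35 in Control arrays. All SAM arrays were lower, but the fold of 1.43 stayed under the 1.5 that the rule asks for (log2 fold change -0.52, SE 0.14, unadjusted P = 0.00802, adjusted p = 0.574 in limma). *SNAI3*, the remaining SNAI gene and not among the 3 smallest P of the list, had 5.42, 5.39 and 5.53 in SAM arrays, against 6.05, 5.74 and 5.82 in Control arrays, again without overlap (log2 fold change -0.42, SE 0.14, adjusted p = 0.576 in limma). *SOX9*, which is among those 3, had 8.02, 8.32 and 8.26 in SAM arrays, against 8.59, 8.64 and 8.60 in Control arrays (log2 fold change -0.41, SE 0.13, adjusted p = 0.576 in limma). In all, 4 of these 9 factors did not overlap between the groups, where 18.4% of the transcript clusters with a symbol did not.

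**Figure D3:**
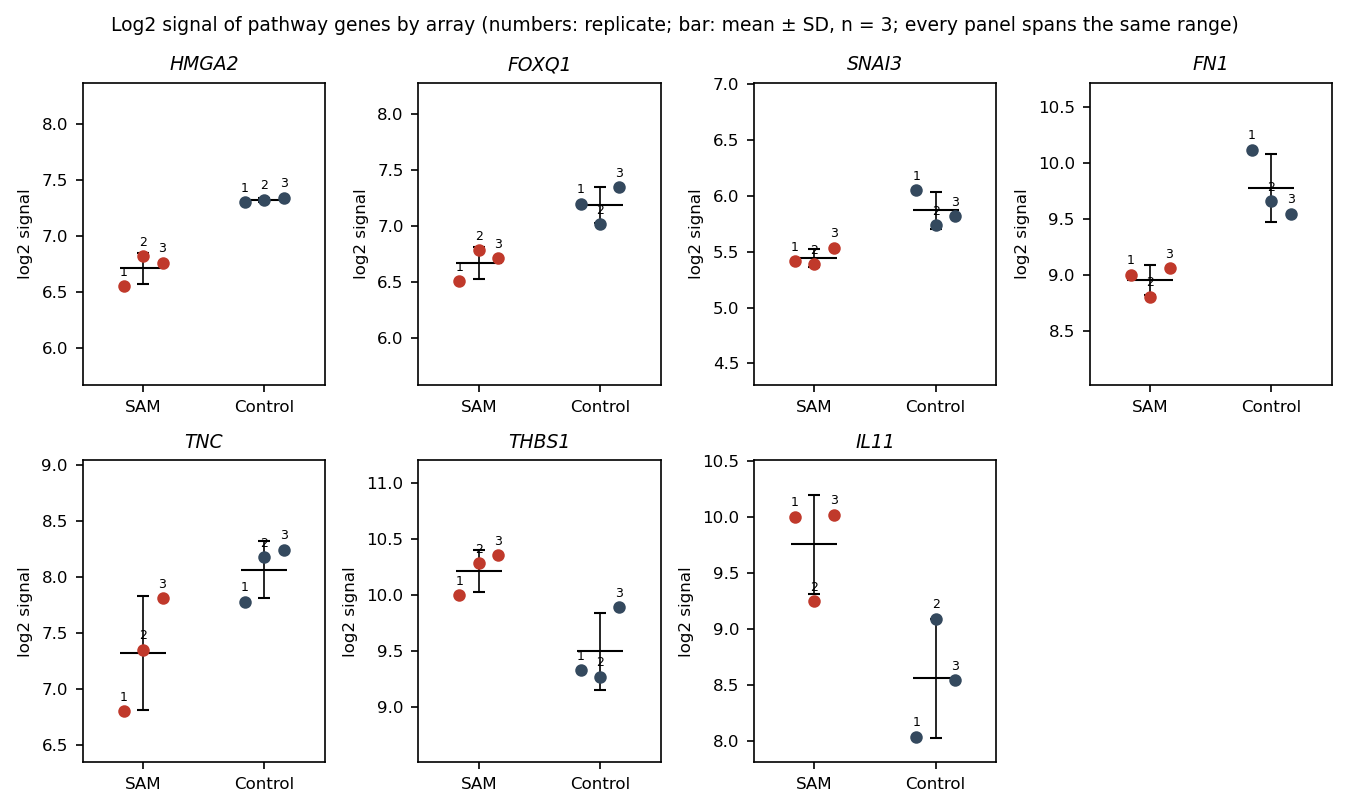
Log2 signal of 7 genes of EMT and TGF-β signaling in every array, with SAM arrays left of Control arrays, the replicate number beside each point, and the mean ± SD (n = 3) as a bar. *HMGA2*, *FOXQ1*, *SNAI3* and *FN1* have all SAM arrays below all Control arrays, *THBS1* and *IL11* have them above, and the groups of *TNC* overlap by 1 array.

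Of 12 further TGF-β family ligands, 7 were measured and 0 passed, where 0.69% of the transcript clusters with a symbol were called. At that share a list this small would mostly hold no call. The median log2 fold change of the ligands was -0.24. The smallest P belonged to the bone morphogenetic protein gene *BMP4* (log2 fold change -0.44, SE 0.24, unadjusted P = 0.112), followed by *GDF11* (-0.29, unadjusted P = 0.139) and *BMP2* (-0.24, unadjusted P = 0.188). The arrays of the groups overlapped for each of the 7, where 18.4% of the transcript clusters with a symbol did not overlap.

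Of 10 genes of TGF-β latency and activation, 7 were measured, 1 rose, 0 fell and 6 did not pass, where 0.69% of the transcript clusters with a symbol were called. The groups did not overlap for 5 of the 7, against 18.4% of the transcript clusters with a symbol. *THBS1*, which encodes thrombospondin 1, an extracellular protein that can release TGF-β from its latent form, had a log2 signal of 9.998, 10.29 and 10.36 in SAM arrays, against 9.33, 9.27 and 9.89 in Control arrays. All SAM arrays were higher, with Control replicate 3 close to SAM replicate 1, and the log2 fold change was 0.72 (SE 0.20, unadjusted P = 0.00788, adjusted p = 0.574 in limma), 1.64-fold higher in SAM-treated cells. Both thresholds were passed without SAM replicate 1 or without Control replicate 3, and not without SAM replicate 2 (0.68), SAM replicate 3 (0.64), Control replicate 1 (0.63) or Control replicate 2 (0.60).

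*LTBP4*, which encodes a matrix protein that binds the latent complex, had 7.24, 7.09 and 7.26 in SAM arrays, against 8.14, 7.48 and 7.74 in Control arrays. Its fold of 1.51 was over 1.5 but the unadjusted P was 0.0128 (log2 fold change -0.59, SE 0.18, adjusted p = 0.575 in limma), so it did not pass. *LRRC32*, which encodes a membrane anchor of latent TGF-β, had 4.32, 4.40 and 4.50 in SAM arrays, against 3.53, 4.14 and 4.14 in Control arrays (log2 fold change 0.47, SE 0.19, unadjusted P = 0.0395), with all 6 values below the median of all transcript clusters.

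Only 2 of 11 further receptors of the family were measured, the co-receptor endoglin (*ENG*, log2 fold change -0.18, SE 0.16) and the type I receptor *ACVRL1* (-0.03, SE 0.18), and neither passed. All 8 SMAD genes were measured and 0 passed, with values of -0.37 to 0.25 and a median of -0.09. The lowest P among them belonged to *SMAD5* (-0.37, SE 0.17, unadjusted P = 0.0659), *SMAD9* (0.25, SE 0.17, unadjusted P = 0.193) and *SMAD1* (-0.14, SE 0.12, unadjusted P = 0.291), which transmit BMP signals. Of the SMADs that act downstream of the TGF-β receptors, *SMAD2* and *SMAD4* both had a log2 fold change of -0.13 and *SMAD3* one of -0.05. Of 19 inhibitors of the pathway 15 were measured and 0 passed, with a median of -0.06 and the smallest P for *TGIF1* (-0.29, SE 0.16, unadjusted P = 0.109), *SMURF1* (-0.24, SE 0.14, unadjusted P = 0.127) and *FSTL3* (-0.23, SE 0.14, unadjusted P = 0.149). Only 0.69% of the transcript clusters with a symbol were called, so lists as small as these receptors, SMADs and inhibitors would mostly hold no call.

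Of 24 genes known as TGF-β targets 9 were measured, of which 1 rose, 0 fell and 8 did not pass, with a median log2 fold change of -0.19. The share called was 0.69% among all transcript clusters with a symbol. *IL11*, which encodes a cytokine that TGF-β induces in metastatic breast cancer cells, had a log2 signal of 10.01, 9.25 and 10.02 in SAM arrays, against 8.04, 9.10 and 8.54 in Control arrays. All SAM arrays were higher, though SAM replicate 2 and Control replicate 2 nearly met. The log2 fold change was 1.20 (SE 0.31, unadjusted P = 0.00538, adjusted p = 0.565 in limma), 2.3-fold higher in SAM-treated cells, and both thresholds were passed without SAM replicate 2 or without Control replicate 2, and not without SAM replicate 1 (1.08), SAM replicate 3 (1.07), Control replicate 1 (0.94) or Control replicate 3 (1.19).

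*LOX*, which encodes a collagen cross-linking enzyme, had 7.24, 7.34 and 7.12 in SAM arrays, against 8.004, 8.26 and 7.40 in Control arrays. No array overlapped, but the unadjusted P of 0.0196 did not pass (log2 fold change -0.66, SE 0.22, adjusted p = 0.58 in limma). *TPM1*, a tropomyosin gene, had a log2 fold change of 0.37 (SE 0.15, unadjusted P = 0.0376 in limma) in its brighter transcript cluster (mean log2 signal 6.12), without overlap between the groups. Its dimmer cluster, at a mean of only 2.93 and with overlapping groups, had -0.34. Neither cluster passed, and no direction is given for the gene. *ANGPTL4*, which encodes a secreted angiopoietin-like protein, had -0.30 (SE 0.16, unadjusted P = 0.0919) and did not pass. *CCN2*, a matricellular protein gene, had -0.37 in its brighter cluster (unadjusted P = 0.152) and -0.81 in its dimmer one (unadjusted P = 0.012), and did not pass in either.

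No epithelial gene that EMT factors repress passed the test among those named by the platform annotation. Of 25 such genes 22 were measured through the platform annotation, and 0 passed, where 0.69% of the transcript clusters with a symbol were called. Negative log2 fold changes were found for 18 and positive ones for 4, with a median of -0.22. Among the transcript clusters with a symbol 53.9% were negative. The groups did not overlap for 7 of the 22, against 18.4% of the transcript clusters with a symbol. *KRT19*, which encodes a simple-epithelial keratin, had a log2 signal of 7.90, 7.86 and 7.92 in SAM arrays, against 8.59, 8.21 and 8.24 in Control arrays. The SAM arrays were nearly level and below all Control arrays (log2 fold change -0.45, SE 0.14, unadjusted P = 0.0142, adjusted p = 0.576 in limma). The polarity gene *LLGL2* (-0.66, SE 0.22, unadjusted P = 0.0185) and the tight junction gene *CLDN4* (-0.36, SE 0.14, unadjusted P = 0.0402) likewise did not overlap and did not pass.

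*MUC1*, which encodes a transmembrane mucin of epithelia, is named only by the study's table of called genes and is not among the 22. Its log2 signal was 5.50, 5.44 and 5.61 in SAM arrays, against 6.25, 6.29 and 6.07 in Control arrays. The log2 fold change was -0.69 (SE 0.13, adjusted p = 0.517 in limma), given as a description, since it was the call that named it.

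SNAI and ZEB proteins are known to bind the E-box CAGGTG, or CACCTG on the other strand, in promoters of epithelial genes. The promoter of *CRB3*, which encodes an apical polarity protein, is shown to make this motif visible, and was picked because it held the most matches among the epithelial genes with a promoter in the RefSeq table (250 bases, GRCh38.p14, chr19:6464021-6464270, plus strand, matches in capitals):
*CRB3* promoter: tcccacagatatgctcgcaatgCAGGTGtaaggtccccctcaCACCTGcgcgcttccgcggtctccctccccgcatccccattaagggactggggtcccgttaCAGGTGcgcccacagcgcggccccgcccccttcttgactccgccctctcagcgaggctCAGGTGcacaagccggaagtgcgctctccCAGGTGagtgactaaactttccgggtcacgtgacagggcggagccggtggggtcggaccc
This window holds 5 matches. *CRB3* had a log2 signal of 5.79, 6.23 and 6.08 in SAM arrays, against 5.63, 5.83 and 6.01 in Control arrays. The groups overlapped, and the log2 fold change was 0.21 (SE 0.17, 95% interval -0.18 to 0.60, adjusted p = 0.747 in limma). Only 13 of the 25 epithelial genes had a promoter in the table, too few to compare their share with the motif with that of all promoters. For the members the count was 7 of the 10, but it left out the chromosome that carries *SNAI2*. Their share was therefore not compared either.

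Of the mesenchymal genes that EMT factors induce, fibronectin alone passed the test. Of 17 such genes 9 were measured, of which 1 fell (*FN1*), 0 rose and 8 did not pass, with 8 negative fold changes, 1 positive and a median of -0.15. Among all transcript clusters with a symbol, 0.69% were called and 53.9% had a negative fold change. *FN1*, which encodes fibronectin, a matrix protein whose gain marks EMT, had a log2 signal of 9.01, 8.81 and 9.06 in SAM arrays, against 10.12, 9.66 and 9.55 in Control arrays. All SAM arrays lay below all Control arrays, at a log2 fold change of -0.82 (SE 0.18, unadjusted P = 0.0021, adjusted p = 0.531 in limma), 1.76-fold lower in SAM-treated cells. It passed both thresholds with each array left out in turn, at -0.93 to -0.65.

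The hyaluronan receptor gene *CD44*, the one mesenchymal gene with a positive value, had 8.16, 7.95 and 8.22 in SAM arrays, against 7.85, 7.58 and 7.67 in Control arrays (log2 fold change 0.41, SE 0.14, unadjusted P = 0.0204). *TNC*, which encodes the matrix protein tenascin C, had 6.80, 7.35 and 7.81 in SAM arrays, against 7.78, 8.18 and 8.25 in Control arrays (log2 fold change -0.75, SE 0.26, unadjusted P = 0.0231). Neither passed. The 3 transcript clusters of *VIM*, the vimentin gene, had log2 fold changes of -0.29, -0.28 and -0.44, and did not pass.

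**Figure D4:**
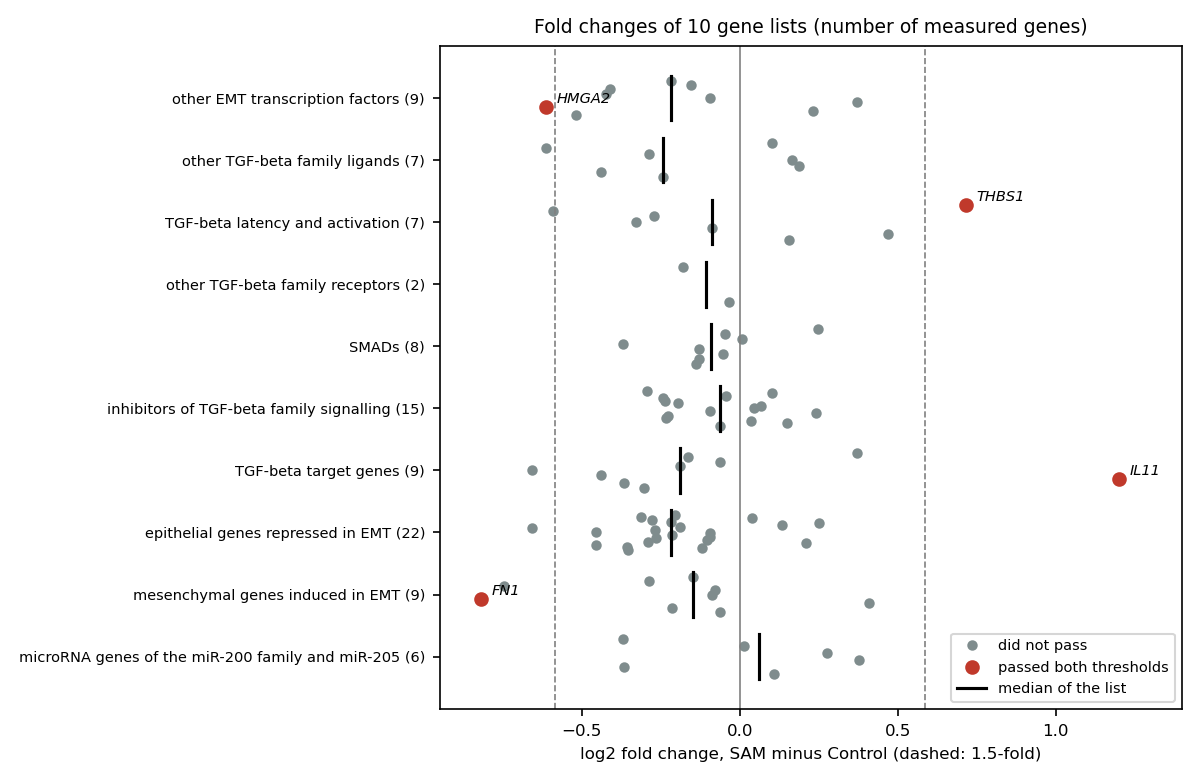
Log2 fold change (SAM minus Control) of each measured gene in 10 lists of EMT and TGF-β genes, 1 list in each row, with the median of the list as a vertical bar and dashed lines at a 1.5-fold change. Most medians lie left of 0 (-0.24 to -0.06), that of the microRNA genes lies at 0.06, and the genes past both thresholds are *HMGA2* and *FN1* on the left and *THBS1* and *IL11* on the right.

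Over the 10 lists, 94 of 145 genes were measured. A total of 4 passed both thresholds (4.26%, against 0.69% of the transcript clusters with a symbol), 2 higher and 2 lower in SAM-treated cells, and 90 did not. In 26 of them (27.7%) the arrays of the groups did not overlap, against 18.4% of the transcript clusters with a symbol. The median log2 fold change was -0.15. Control replicate 2 was the highest Control array for 42 of the 94 genes (44.7%). As the lists were drawn up with earlier results of these data known, these shares describe the lists and were not tested.

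**Figure D5:**
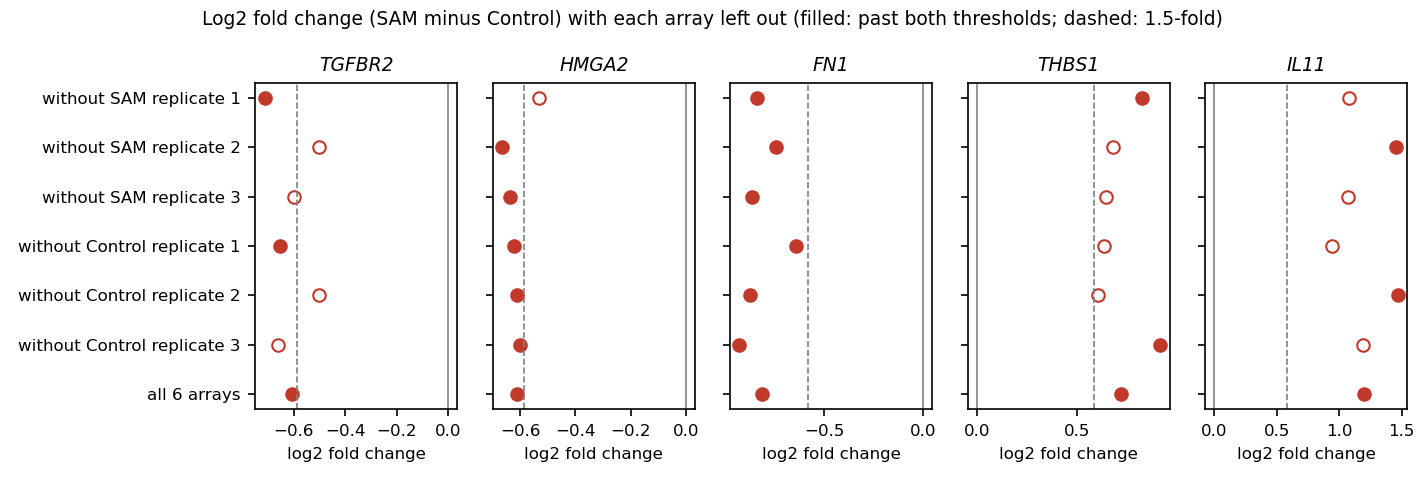
Log2 fold change (SAM minus Control) of *TGFBR2*, *HMGA2*, *FN1*, *THBS1* and *IL11* with all 6 arrays (bottom row) and with each array left out in turn, with filled points where both thresholds were passed and dashed lines at a 1.5-fold change. *FN1* stays filled in all rows and *HMGA2* in all but that without SAM replicate 1, whereas *TGFBR2*, *THBS1* and *IL11* stay filled in 2 of the 6 rows with an array left out.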

How the data were processed

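RNA of 3 SAM-treated and 3 Control cultures was hybridized to 1 array each, from 100 ng of total RNA per the labels. The deposited values are log2 signals that the authors made by RMA, run in oligo: background was corrected, the 6 arrays were quantile-normalized together and the probes of each transcript cluster were summarized. No filter is stated, and the version of oligo is not given in the sources used here. For dim transcript clusters, background can make up much of the signal, which can compress fold changes; this was not tested here. Columns of the study's own comparisons were not used, and its table of called genes served only to name transcript clusters that the platform annotation leaves unnamed.

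All 53617 transcript clusters were fitted with limma 3.58.1 in R 4.3.3 (lmFit, eBayes, no block or covariate), with Benjamini-Hochberg adjustment over all of them; the procedure was tested on simulated data. The study describes 3 independent sets of control and SAM-treated RNA, and arrays of the same number are not shown to be pairs. The spread between arrays is the only error measured, and the number of arrays limits the precision. For a gene with several transcript clusters the one with the highest mean was used. The genes named are all members, list genes past both thresholds and up to 3 genes with the smallest P in each list. The 3 genes most correlated with *TGFBR2* are also named. *SNAI3*, *CRB3*, *SMAD2*, *SMAD3*, *SMAD4*, *ANGPTL4*, *CCN2*, *VIM* and *MUC1* were added after their values were seen. The members and lists were chosen with earlier results of these data known. The 10 lists are other EMT transcription factors, TGF-β family ligands, latency and activation, receptors, SMADs, inhibitors, TGF-β targets, epithelial genes, mesenchymal genes and microRNA genes. Cell markers were those of MDA-MB-231 cells, luminal, leukocyte, endothelial, and fibroblast and muscle cells. Of the MDA-MB-231 markers 6 of 7 were measured (mean log2 signals of 6.42 to 11.5) and of the luminal markers 7 of 7 (4.12 to 8.12), with 0 calls in either. The share called among the transcript clusters with a symbol was 0.69%.

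The alternatives were to leave out dimmer transcript clusters, to repeat quantile normalization, to centre the arrays, a trended and robust eBayes, the replicate number as a block, P alone, adjusted p, the mean of a gene's transcript clusters, and leaving out each array in turn.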

Additional observations from a re-analysis of the deposited data

How the results depend on the processing

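The number of called transcript clusters was 582. It was 359 without the dimmer transcript clusters, 921 with the unadjusted P alone, 0 at an adjusted p under 0.05 in limma, and 463 to 934 with each array left out in turn, the highest without Control replicate 2. Among the members 1 passed, with 0 at an adjusted p under 0.05, 0 with the replicate block (*TGFBR2*, unadjusted P = 0.0203), and 0 to 1 with each array left out, at 0 without SAM replicate 2 or 3 or Control replicate 2 or 3. Of the list genes 4 passed, with 0 at an adjusted p under 0.05 and 2 to 6 with each array left out, at 2 without SAM replicate 1 or Control replicate 1. The block is given here only, because arrays of the same number are not shown to be pairs. Their deviations from the group means correlated at -0.00267, -0.0748 and 0.109, and those of different numbers at -0.139 to 0.112. The block left the list count at 4 and gave 659 calls in all. Signs reversed for *SNAI1*, *TWIST1* and *TWIST2*. *SNAI1* was at -0.0205 with each array centred, and ranged from -0.0415 (without Control replicate 1) to 0.0888 with each array left out, also negative when SAM replicate 1 (-0.00) or SAM replicate 3 (-0.01) was omitted. *TWIST1* ranged from -0.0873 to 0.0363, positive in the absence of SAM replicate 1 (0.02) or Control replicate 3, and *TWIST2* was at -0.18 without SAM replicate 2 and at -0.21 once Control replicate 1 was omitted. The cause of these reversals was not tested. *SNAI2*, *ZEB1* and *ZEB2* kept a negative sign and did not pass under all 14 alternatives, with adjusted p values of 0.54 to 0.872, 0.553 to 0.871 and 0.455 to 0.867 in limma. For *TGFBR2* the adjusted p ran from 0.328 to 0.867, for *HMGA2* from 0.282 to 0.867, for *FN1* from 0.287 to 0.867, for *THBS1* from 0.331 to 0.867 and for *IL11* from 0.324 to 0.867 in limma. *HMGA2* also missed the threshold when quantile-normalized again (-0.54), and *IL11* with the replicate block. *TWIST1* and *TWIST2* are among the dimmer transcript clusters and have no value once those are left out. The median log2 fold change over all transcript clusters was 0.0017 after repeated quantile normalization and -0.04 after centring, against -0.0031 in the main fit.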
